A study of Homo sapiens with 24 samples.

Results

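The YPEL (yippee-like) family comprises 5 human genes, YPEL1 to YPEL5, and was taken here as the rows of the per-library count files that carry these symbols. All 5 symbols were found, each on 1 row, among 58735 gene rows. Bulk poly(A) RNA-seq counts were available for 24 libraries from 3 established breast cancer cell lines, with 3 replicate libraries (A, B and C) in each of 8 groups. HCC1395 cells received the vehicle DMSO, 5 uM tazemetostat (EZH2i, an inhibitor of the histone methyltransferase EZH2), 5 uM ipatasertib (AKTi, an inhibitor of the kinase AKT), or both agents at those doses (EZH2i+AKTi). HCC38 and HCC1937 cells received DMSO or EZH2i+AKTi only, so the agents could be separated only in HCC1395. The length of treatment of these libraries was not clear, because the timeline in the labels is written for another line and another assay. Each line is a single established line used as a model of triple-negative breast cancer. The labels give no gene knockout or transgene in any group, and nothing in them says that replicates came from separate cultures. The p-values below therefore measure only the spread between these libraries, which may be technical.

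YPEL proteins are small, strongly conserved zinc-binding proteins built around the Yippee domain, which was first described in a Drosophila protein that binds hemolin. The same fold occurs in the thalidomide-binding domain of cereblon and in the Mis18 proteins of the centromere. YPEL3 has been described as a gene that slows growth and promotes senescence, and YPEL5 as a partner of the CTLH (GID) ubiquitin ligase. YPEL1, YPEL2 and YPEL4 are less well characterised, and family members have been seen in the nucleus and at the centrosome. EZH2 is the catalytic subunit of Polycomb repressive complex 2, which methylates lysine 27 of histone H3. AKT acts downstream of PI3K and phosphorylates FOXO transcription factors, which keeps them out of the nucleus.

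The 5 genes lie on 5 chromosomes, so none is a neighbour of another. On GRCh38 (hg38), the build of the counts, YPEL1 (ENSG00000100027.14) spans chr22:21697544-21735834 on the minus strand. YPEL2 (ENSG00000175155.8) spans chr17:59331689-59401729 on the plus strand, and YPEL3 (ENSG00000090238.11) spans chr16:30092314-30096915 on the minus strand. YPEL4 (ENSG00000166793.10) spans chr11:57645087-57649944 on the minus strand, and YPEL5 (ENSG00000119801.12) spans chr2:30146941-30160533 on the plus strand. The longest annotated coding sequences of YPEL1 to YPEL4 were 75.9% to 80.6% identical to each other over their aligned bases. YPEL5 was the divergent member, at 55.6% to 58.5% identity with the other 4. The longest exact stretch shared by transcripts of any 2 members was 27 bases, between YPEL1 and YPEL3. All 5 genes are therefore described separately.

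Because the members moved together under treatment, the letters around their transcription starts are shown for comparison. RefSeq promoters on GRCh38.p14 were matched by symbol for 4 of the 5 members, with YPEL1 unmatched. Each line gives 100 bases before the RefSeq gene start and 14 bases from it, read 5′ to 3′ on the strand of the gene. Capitals mark GTAAACA, the letters of the FOXO consensus element.
YPEL2, chr17:59331555-59331668, plus strand: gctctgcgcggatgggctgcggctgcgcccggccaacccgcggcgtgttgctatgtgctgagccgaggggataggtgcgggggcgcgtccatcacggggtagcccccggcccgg
YPEL3, chr16:30096200-30096313, minus strand: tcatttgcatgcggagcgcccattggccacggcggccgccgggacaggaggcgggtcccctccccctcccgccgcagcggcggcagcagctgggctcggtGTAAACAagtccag
YPEL4, chr11:57649899-57650012, minus strand: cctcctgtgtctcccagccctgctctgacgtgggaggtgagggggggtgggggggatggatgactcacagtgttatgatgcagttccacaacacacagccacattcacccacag
YPEL5, chr2:30146907-30147020, plus strand: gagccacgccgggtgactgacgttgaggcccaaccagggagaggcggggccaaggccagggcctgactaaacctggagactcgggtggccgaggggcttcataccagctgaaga

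The motif was searched as GTAAACA on both strands (TGTTTAC on the other strand) over the whole 300-base promoter window, from 250 bases before to 50 bases after the gene start. It was present in 1 of the 4 members' windows, that of YPEL3, where it begins at the first base of the RefSeq gene. That window, chr16:30096164-30096463, lies inside the GENCODE span of YPEL3 given above, whose 5′ end is at 30096915. Among all 35116 promoter windows of that length, 1202 (3.42%) held it. The match is a description of letters, and binding was not measured in these libraries.

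Library totals ran from 33469927 to 51815656 counts. The share of counts on mitochondrial genes was 3.765% to 8.539% and moved with treatment in HCC1395, from 3.765% to 3.921% under DMSO through 4.486% to 5.187% under EZH2i and 5.339% to 5.718% under AKTi to 6.143% to 6.299% under both agents. In HCC1937 it was 4.807% to 6.372% under DMSO and 6.724% to 8.539% under both agents. In HCC38 under both agents, replicate C stood apart, with 7.768% of its counts on mitochondrial genes against 4.758% at the lowest in its group. The changes of the members in HCC38, their shares and the gene lists there are therefore also given without that library. Leukocyte markers were at or near 0 in every library, at most 1.16 CPM (counts scaled to library size) summed, with CD3E at 0 in all 12 HCC1395 libraries. Of the hormone receptor and HER2 genes, PGR reached at most 0.0979 CPM. ESR1 was at 12.6 to 21.4 CPM in HCC1937, 1.83 to 3.11 in HCC38 and at most 0.215 in HCC1395. ERBB2, which encodes HER2, was at 179 to 240 CPM in HCC1937, 111 to 163 in HCC38 and 43.7 to 67.2 in HCC1395. HCC38 and HCC1937 carried the epithelial marker EPCAM at medians of 460 and 269 CPM. HCC1395 had a median of 3.37 CPM of EPCAM with 1898 CPM of VIM, a mesenchymal marker, which was at 948 CPM in HCC38 and 49 in HCC1937. The epithelial markers CDH1, KRT8 and KRT18 were also lower in HCC1395 than in the other lines. KRT14, another epithelial marker, was higher there, at a median of 456 CPM against 0.182 in HCC38 and 7.35 in HCC1937. Markers of other cell types also moved with treatment. Summed fibroblast markers in HCC1395 were 2.11 to 2.93 CPM under DMSO and 18.2 to 21.7 CPM under both agents, nearly all of it PDGFRA (2.09 to 21.4 CPM), while DCN was at 0.0278 to 0.497 CPM and LUM at 0 to 0.163 CPM. Summed mesenchymal markers in HCC1395 were 2351 to 2575 CPM under DMSO and 3840 to 4063 CPM under AKTi, and summed epithelial markers were 493 to 513 CPM under DMSO and 672 to 713 CPM under EZH2i. Summed endothelial markers in HCC1937 were 35.0 to 38.1 and 63.7 to 68.6 CPM. The part of these shifts in the YPEL results was not tested. RNA came from whole cultures, so a change in the RNA per cell and a change in the number of cells that express a gene cannot be told apart.

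In HCC1395, the only line given AKTi alone, YPEL transcripts were lower in untreated cells than under AKTi. Levels below are CPM with TMM scaling within each line unless stated otherwise. To compare genes with each other, CPM scaled over all 24 libraries were divided by the exonic length in kilobases. On that scale YPEL5 was the most abundant member in the DMSO cells of all 3 lines, at 10.5 ± 0.257 CPM per kb in HCC1395, 5.16 ± 0.122 in HCC38 and 15.5 ± 0.310 in HCC1937 (SD, n = 3 each). YPEL3 was next, at 3.44 ± 0.195, 0.822 ± 0.0331 and 8.48 ± 1.57 CPM per kb in the same order. YPEL1, YPEL2 and YPEL4 were each at most 0.601 CPM per kb in these groups. The summed family level was 15.1 ± 0.311 CPM per kb in HCC1395 under DMSO, 6.36 ± 0.161 in HCC38 and 25.0 ± 1.87 in HCC1937.

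Members of the family were also compared between the untreated lines. Tests were edgeR quasi-likelihood tests over 20697 genes in a fit of all 24 libraries, with Benjamini-Hochberg adjustment. HCC38 was the low line: all 5 members were lower than in HCC1395, in a comparison that called 74.7% of genes, 36.5% of all genes as lower in HCC38. The difference was largest for YPEL2, at -3.71 ± 0.22 (log2 difference ± SE, adjusted p = 1e-17), and YPEL3 was lower by -2.06 ± 0.21 (adjusted p = 3.99e-09). YPEL4, YPEL5 and YPEL1 differed by -1.16 ± 0.36, -1.02 ± 0.08 and -0.77 ± 0.16. No HCC38 DMSO library reached the level of any HCC1395 DMSO library in any member. The share of all genes without overlap between groups was not counted, here or below, so nothing is read from a count of such members. Against HCC1395, HCC1937 had more YPEL3 (1.30 ± 0.16, adjusted p = 2e-07) and YPEL5 (0.56 ± 0.08, adjusted p = 1.69e-07) and less YPEL2 (-0.59 ± 0.12, adjusted p = 5.97e-05), so 3 of 5 members differed beside 73.0% of all genes, a share below that of all genes. YPEL1 (0.26 ± 0.14, adjusted p = 0.0993) and YPEL4 (-0.57 ± 0.31, adjusted p = 0.101) did not pass the test. YPEL1 passed without HCC1937 DMSO replicate C (0.37, adjusted p = 0.0346), and YPEL4 without HCC1395 DMSO replicate A (-0.86, adjusted p = 0.0144). HCC1937 against HCC38 gave 4 of 5 members higher, beside 71.9% of genes called and 36.2% called higher, with YPEL3 up by 3.36 ± 0.20 and YPEL2 by 3.12 ± 0.22. The share of members called was near that of all genes. YPEL4 was the member that did not pass (0.59 ± 0.37, adjusted p = 0.140).

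**Figure D1:**
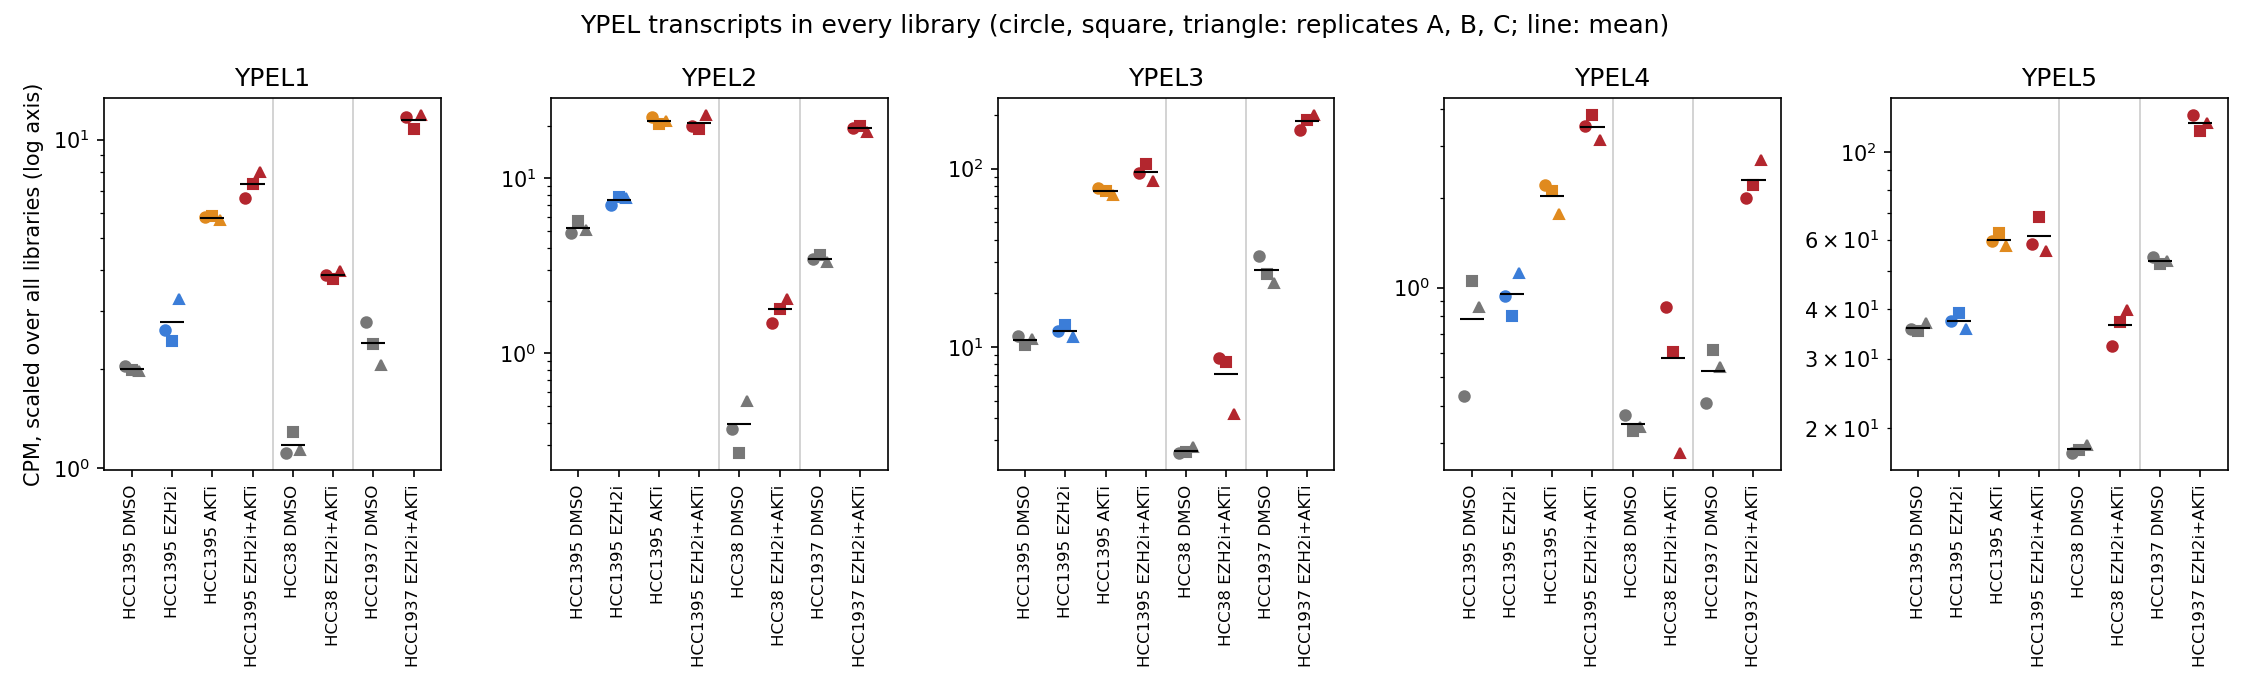
Level of each YPEL gene in CPM, scaled over all 24 libraries, on a log axis, for every library of the 8 groups (circle, square and triangle for replicates A, B and C, black line for the group mean). The AKTi and EZH2i+AKTi libraries sit above the DMSO libraries of their line for each gene, except YPEL4 in HCC38, where replicate C under both agents, at 0.277 CPM, is the lowest library of that line.

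Every member was higher under the AKT inhibitor alone in HCC1395, and YPEL3 had the largest change of the 5. YPEL3, the reported growth-suppressive member, stood at 11.3, 10.1 and 10.9 CPM in the DMSO libraries A, B and C and at 76.0, 73.4 and 69.7 CPM under AKTi. The groups did not overlap, and the lowest AKTi library was far above the highest DMSO library. The log2 change was 2.76 ± 0.08 (SE), a 6.77-fold difference, which ranked at place 33 from the top among 18074 genes tested. YPEL2 was at 4.78, 5.64 and 4.96 CPM under DMSO and at 21.9, 20.0 and 20.8 under AKTi, a log2 change of 2.03 ± 0.09. YPEL1 was at 2.01, 1.97 and 1.95 CPM under DMSO and at 5.70, 5.73 and 5.58 under AKTi, a log2 change of 1.52 ± 0.13. Both genes separated the groups completely, with little spread among replicates.

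YPEL4 was measured least precisely, from 16 to 37 counts per library under DMSO and 65 to 86 under AKTi. Its levels were 0.422, 1.04 and 0.850 CPM under DMSO and 2.17, 2.08 and 1.73 under AKTi, a log2 change of 1.38 ± 0.25. DMSO replicate A was the low library, and the groups still did not overlap. YPEL5, the CTLH partner and the most abundant member under DMSO, was at 35.0, 34.8 and 36.4 CPM under DMSO and at 58.2, 61.2 and 56.7 under AKTi. Its log2 change of 0.73 ± 0.07 was the smallest of the family. YPEL3 was proposed for study with its rise under AKTi in HCC1395 known, so these changes are a description and carry no p-value. All 5 members were called higher in that comparison, in which 49.7% of genes were called and 27.1% were called higher. For the same reason nothing is read from that count.

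The EZH2 inhibitor alone moved the family little. YPEL2 rose by 0.54 ± 0.10 (adjusted p = 0.000214), with 6.97, 7.70 and 7.63 CPM in the EZH2i libraries, all above the 3 DMSO libraries. YPEL1 rose by 0.48 ± 0.14 (adjusted p = 0.0125), with 2.61, 2.41 and 3.25 CPM. Replicate C was the high library for YPEL1, and without it the change was 0.34 with an adjusted p of 0.0946. YPEL3 was at 12, 13.1 and 11.2 CPM, overlapping its DMSO values, and its change of 0.17 ± 0.09 did not pass the test (adjusted p = 0.138). YPEL4 (0.29 ± 0.27, adjusted p = 0.439) and YPEL5 (0.06 ± 0.07, adjusted p = 0.543) also overlapped between groups and did not pass. Thus 2 of 5 members were called, both higher, beside 33.7% of the 18074 genes tested and 18.8% called higher. This comparison uses the same DMSO libraries as the AKTi comparison.

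**Figure D2:**
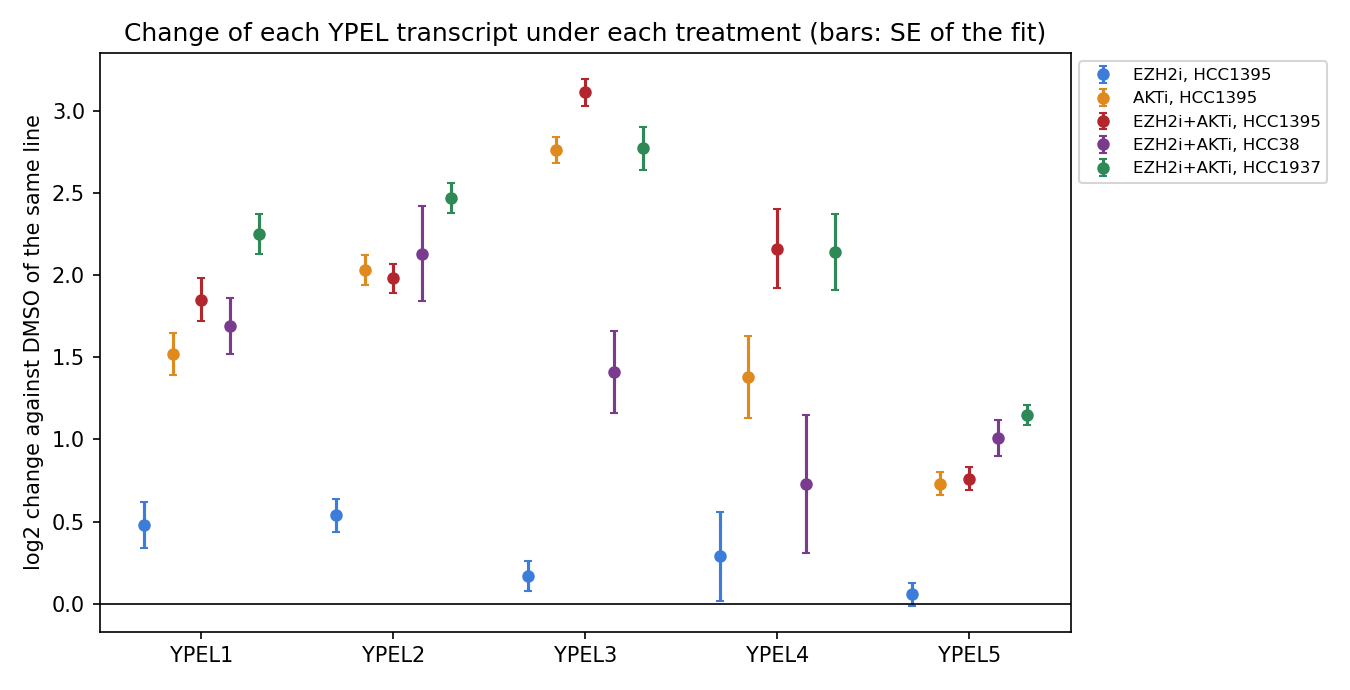
Log2 change of each YPEL gene against DMSO of the same line, with the SE of the fit as error bars, under EZH2i, AKTi and EZH2i+AKTi in HCC1395 and under EZH2i+AKTi in HCC38 and HCC1937. In HCC1395 the EZH2i values lie between 0.06 and 0.54 and the AKTi values between 0.73 and 2.76, and the comparisons within HCC1395 share their DMSO libraries.

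Under both agents in HCC1395, YPEL3 reached 93.0, 103 and 83.2 CPM, a log2 change of 3.11 ± 0.08 from DMSO (8.64-fold). YPEL4 was at 3.45, 3.73 and 3.07 CPM (2.16 ± 0.24) and YPEL1 at 6.55, 7.16 and 7.78 CPM (1.85 ± 0.13). YPEL2 was at 19.7, 18.7 and 22.5 CPM (1.98 ± 0.09) and YPEL5 at 57.7, 66.9 and 54.7 CPM (0.76 ± 0.07). All 5 members were called higher, in a comparison that called 60.0% of genes and 32.5% as higher, and all 5 had no overlap with DMSO. As with AKTi alone, these values are a description, and nothing is read from either count. Against EZH2i alone, adding AKTi gave higher levels of the same 5 genes, beside 49.0% of all genes called and 23.9% called higher. YPEL2 differed by 1.44 ± 0.09, YPEL1 by 1.38 ± 0.12 and YPEL5 by 0.70 ± 0.07. YPEL4 differed by 1.87 ± 0.22 and YPEL3 by 2.94 ± 0.08. This contrast is again an effect of AKTi in HCC1395, so all 5 values are a description with no p. Nothing is read from their count.

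When EZH2i was added to AKTi, 3 of the 5 members rose further. YPEL4 rose by 0.78 ± 0.20 (adjusted p = 0.00439) and YPEL1 by 0.33 ± 0.11 (adjusted p = 0.0268). YPEL3 differed by 0.35 ± 0.07, given as a description because its rise under AKTi was known when it was chosen. For these 3 genes every EZH2i+AKTi library lay above every AKTi library, a trait not counted over all genes. YPEL2 (-0.05 ± 0.08, adjusted p = 0.691) and YPEL5 (0.03 ± 0.07, adjusted p = 0.785) overlapped between the groups and did not pass. The 3 calls of 5, with YPEL3 among them as a description, stood beside 35.5% of genes called and 17.0% called higher. The YPEL1 call was lost without any 1 of the 3 AKTi libraries (0.32 to 0.34, adjusted p 0.064 to 0.0839) and without EZH2i+AKTi replicate C (0.27, adjusted p = 0.0918).

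The interaction term asks whether the log2 change under both agents differs from the sum of the changes under each. It contains the AKTi change known when the family was chosen, so its values for the members are a description with no p. YPEL2 was below the sum: 0.54 and 2.03 add to 2.57, and 1.98 was measured, an interaction of -0.59 ± 0.13. Over all alternatives the YPEL2 value ranged from -0.66 to -0.45, below 0 in each. The interactions of the other members were -0.15 ± 0.18 for YPEL1, 0.18 ± 0.11 for YPEL3, 0.49 ± 0.33 for YPEL4 and -0.03 ± 0.10 for YPEL5. YPEL2 alone was called, beside 1.58% of all genes and 1.06% called lower, and nothing is read from that count. Over all genes 95 were called higher and 191 lower, a split that depended on the scaling, with 146 higher and 125 lower under RLE scaling and 280 higher and 197 lower by DESeq2. Of 15 FOXO-induced genes tested in this term, 1 was called higher and 3 lower, beside 0.526% and 1.06% of all genes, and 11 were not called. The 4 named genes of that list stood at -0.61 ± 0.07 for TXNIP, -0.38 ± 0.09 for KLHL24, 0.20 ± 0.07 for FBXO32 and -0.12 ± 0.10 for PIK3IP1. Several genes of the list were picked from earlier results of these libraries. These values are therefore also a description, and nothing is read from the list count.

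**Figure D3:**
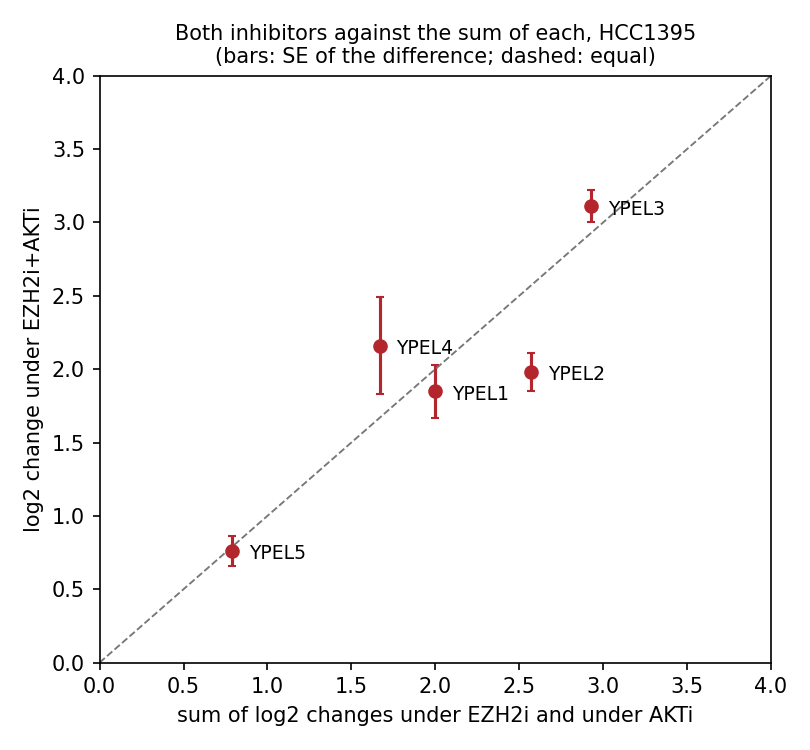
Measured log2 change of each YPEL gene under EZH2i+AKTi in HCC1395 (vertical) against the sum of its log2 changes under EZH2i and under AKTi (horizontal), with the SE of the difference as error bars and a dashed line where the values are equal. YPEL2 lies below the line, at 1.98 against 2.57. YPEL1 and YPEL5 lie within 1 SE of it, and YPEL3 and YPEL4 lie above it by 0.18 and 0.49.

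In HCC1937, both agents together raised all 5 members, and none of the 5 overlapped between treated and DMSO libraries (share over all genes not counted). YPEL3 was at 33.0, 25.9 and 23.4 CPM under DMSO and at 167, 191 and 202 CPM under both agents, a log2 change of 2.77 ± 0.13 given as a description. These were the highest YPEL3 levels of any group. YPEL2 rose from 3.49, 3.69 and 3.39 CPM to 19.6, 20.4 and 18.6 CPM (2.47 ± 0.09, adjusted p = 1.75e-11). YPEL1 rose from 2.83, 2.41 and 2.11 CPM to 11.8, 11.1 and 12 CPM (2.25 ± 0.12, adjusted p = 7.48e-10). Neither gene overlapped between the groups. YPEL4 rose from 0.415, 0.626 and 0.554 CPM to 2.03, 2.27 and 2.74 CPM (2.14 ± 0.23, adjusted p = 1.03e-06). YPEL5 rose from 54.9, 52.8 and 54.1 CPM to 125, 115 and 120 CPM (1.15 ± 0.06, adjusted p = 3.63e-10). The 5 calls stood beside 59.3% of the 17692 genes called and 30.5% called higher, and the YPEL3 call among them is a description.

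HCC38 started lowest and responded in 4 of the 5 members, beside 31.4% of the 17100 genes called and 16.8% called higher. YPEL3 is counted among the 4 as a description. YPEL5 rose from 17.8, 18.2 and 18.6 CPM to 32.7, 37.4 and 40.1 CPM (1.01 ± 0.11, adjusted p = 9.43e-05). YPEL1 rose from 1.14, 1.33 and 1.16 CPM to 3.91, 3.8 and 4.01 CPM (1.69 ± 0.17, adjusted p = 5.17e-05). Neither gene overlapped between groups. YPEL2 rose from 0.381, 0.279 and 0.551 CPM to 1.51, 1.82 and 2.06 CPM (2.13 ± 0.29, adjusted p = 0.000371), on 9 to 19 counts per DMSO library. YPEL3 was at 2.61, 2.66 and 2.81 CPM and then at 8.79, 8.34 and 4.26 CPM, a log2 change of 1.41 ± 0.25 given as a description. YPEL4 was at 0.381, 0.341 and 0.348 CPM and then at 0.866, 0.614 and 0.278 CPM (0.73 ± 0.42, adjusted p = 0.211). Replicate C, the library high in mitochondrial counts, was the lowest treated library for YPEL3 and YPEL4 and the highest for YPEL1, YPEL2 and YPEL5. Without it YPEL4 passed the test (1.08, adjusted p = 0.0267), while without EZH2i+AKTi replicate A the YPEL4 change was 0.37 (adjusted p = 0.543). Without replicate C YPEL3 stood at 1.70, and YPEL1, YPEL2 and YPEL5 at 1.70, 2.06 and 0.98. What set that library apart was not tested.

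The combination response itself was compared between lines in the fit of all 24 libraries. Between HCC38 and HCC1937, YPEL3 responded less in HCC38, by -1.33 ± 0.26, and without HCC38 replicate C under both agents by -1.07. Both YPEL3 values are a description, since its response to AKTi was known when it was chosen. YPEL4 also responded less in HCC38, by -1.38 ± 0.46 (adjusted p = 0.0229). The YPEL4 call was lost without any 1 of 4 libraries, HCC38 DMSO A, HCC38 EZH2i+AKTi C, HCC1937 DMSO A or HCC1937 EZH2i+AKTi C (-1.32 to -1.07, adjusted p 0.0509 to 0.0626). YPEL1 responded less in HCC38 (-0.54 ± 0.20, adjusted p = 0.0387), and by -0.55 without HCC38 EZH2i+AKTi C (adjusted p = 0.0481). That call was lost without 8 of the 12 libraries taken singly (-0.57 to -0.43, adjusted p 0.0529 to 0.127), namely all 3 HCC38 DMSO libraries, HCC38 EZH2i+AKTi B, HCC1937 DMSO B and C, and HCC1937 EZH2i+AKTi A and C. YPEL2 (-0.31 ± 0.25, adjusted p = 0.393) and YPEL5 (-0.11 ± 0.11, adjusted p = 0.48) did not pass. Thus 3 of 5 members responded less in HCC38 than in HCC1937, with YPEL3 counted as a description, beside 32.0% of all genes called and 14.3% called lower.

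Differences from the response of HCC1395 contain the change known when the family was chosen, so they are given as a description with no p. HCC38 minus HCC1395 was -1.68 ± 0.27 for YPEL3 and -1.40 ± 0.45 for YPEL4, and -1.43 and -1.10 without HCC38 EZH2i+AKTi C. It was -0.15 ± 0.20 for YPEL1, 0.17 ± 0.25 for YPEL2 and 0.28 ± 0.11 for YPEL5, so YPEL3 and YPEL4 lay farthest below 0. HCC1937 minus HCC1395 was 0.49 ± 0.15 for YPEL2, 0.39 ± 0.11 for YPEL5 and 0.39 ± 0.18 for YPEL1, and -0.35 ± 0.22 for YPEL3 and -0.03 ± 0.38 for YPEL4. In HCC38 against HCC1395, 2 of 5 members were called, beside 33.0% of all genes called and 15.6% called lower. In HCC1937 against HCC1395 it was 2 of 5, beside 23.3% and 11.3% called higher. Nothing is read from these 2 counts.

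Set in order over all 8 groups on the joint scale, YPEL3 was highest in HCC1937 under both agents (184 ± 17.5 CPM). HCC1395 followed under both agents (95.1 ± 10.2) and under AKTi (74.5 ± 3.42), then HCC1937 under DMSO (27.0 ± 5.00). HCC1395 under EZH2i (12.3 ± 0.992) and DMSO (10.9 ± 0.619) came next, then HCC38 under both agents (7.06 ± 2.46, or a mean of 8.48 without replicate C) and DMSO (2.62 ± 0.105, SD, n = 3 each). Only the EZH2i and DMSO groups of HCC1395 overlapped among these neighbours. YPEL5 ran from 118 ± 5.51 CPM in treated HCC1937 to 17.7 ± 0.416 in HCC38 under DMSO. In between, the AKTi and EZH2i+AKTi groups of HCC1395 overlapped, and so did treated HCC38 with the EZH2i and the DMSO groups of HCC1395. YPEL1 ran from 11.5 ± 0.553 to 1.18 ± 0.0964 CPM between the same end groups, with an overlap only between HCC1395 under EZH2i and HCC1937 under DMSO. YPEL2 was highest in HCC1395 under AKTi (21.3 ± 0.997 CPM), which overlapped HCC1395 under both agents, and that group overlapped treated HCC1937 (19.3 ± 0.800). YPEL2 was lowest in HCC38, at 1.78 ± 0.278 CPM treated and 0.392 ± 0.135 under DMSO. YPEL4 was highest in HCC1395 under both agents (3.49 ± 0.338 CPM) and lowest in HCC38 under DMSO (0.346 ± 0.0219). Treated HCC1937 overlapped HCC1395 under AKTi for YPEL4, and so did each step from HCC1395 under EZH2i through HCC1395 under DMSO and treated HCC38 to HCC1937 under DMSO.

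The unequal changes altered the make-up of the family. In HCC1395, YPEL5 made up 69.4% ± 0.439 of the summed CPM per kb under DMSO and YPEL3 22.7% ± 1.07 (SD, n = 3). Under AKTi, YPEL3 made up 52.0% ± 0.883 and YPEL5 38.8% ± 1.07, and under both agents the shares were 56.9% ± 1.22 and 34.0% ± 0.648. In each AKTi and EZH2i+AKTi library of this line YPEL3 was the larger of the pair, and in every DMSO and EZH2i library YPEL5 was. HCC1937 made the same exchange, with YPEL3 at 33.7% ± 3.68 under DMSO and 59.2% ± 3.06 under both agents. In HCC38, YPEL5 stayed the major transcript, at 81.2% ± 0.141 and 75.8% ± 6.06, and YPEL3 was at 12.9% ± 0.209 and 15.9% ± 5.77. Without replicate C the treated means were 72.5% for YPEL5 and 19.1% for YPEL3. The summed level went from 15.1 ± 0.311 to 45.1 ± 1.59 CPM per kb under AKTi and 52.5 ± 4.92 under both agents in HCC1395. It went from 25.0 ± 1.87 to 97.5 ± 4.71 in HCC1937 and from 6.36 ± 0.161 to 14 ± 0.623 in HCC38. These sums and shares are descriptions and were not tested.

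**Figure D4:**
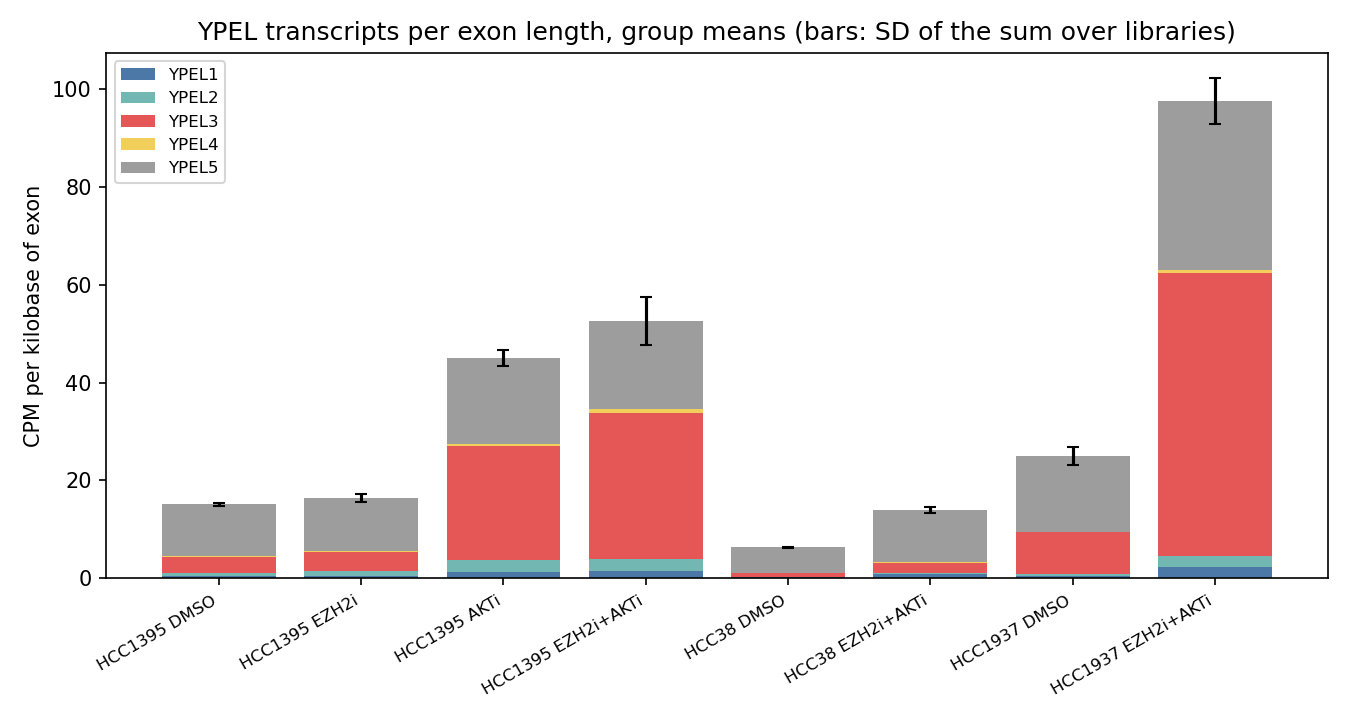
Group means of the 5 YPEL genes, stacked, in CPM per kilobase of exon on the scale of all 24 libraries, with the SD of the sum over 3 libraries as error bars. YPEL3 forms the larger part of the bar in HCC1395 under AKTi and EZH2i+AKTi and in treated HCC1937, and YPEL5 forms it in the other 5 groups.

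Of the 5 members, 4 share their locus with another annotated gene on the opposite strand, and whether the counting used strand is not given in the sources used here. YPEL1 overlaps PPIL2 over 2472 bases, and PPIL2 fell under AKTi (-0.29 ± 0.06, adjusted p = 0.000297) and in treated HCC1937 (-0.35 ± 0.06, adjusted p = 0.00015), the opposite direction to YPEL1. YPEL3 overlaps the antisense gene AC012645.1 over 486 bases, and that gene was at 1.35 CPM under DMSO and 1.56 under AKTi, with no call (adjusted p = 0.421). The whole of YPEL4 lies within AP000662.1 on the other strand, and 953 bases of it overlap CLP1. AP000662.1 rose with YPEL4 under AKTi (0.62 ± 0.22, adjusted p = 0.0217) and in treated HCC1937 (1.38 ± 0.14, adjusted p = 9.07e-07). Reads of YPEL4 and AP000662.1 may not have been told apart. YPEL2 overlaps the antisense gene AC091059.1 over 1242 bases, and YPEL5 overlaps no annotated gene.

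The genes of the CTLH ubiquitin ligase, with which YPEL5 associates, were counted in each comparison. Of 10 tested, 5 were called higher and 1 lower under AKTi in HCC1395, beside 27.1% and 22.6% of all genes (median log2 change 0.16, against 0.06 for all genes tested). Under both agents in HCC1395, 3 were higher and 2 lower, beside 32.5% and 27.4% of all genes. In HCC38 it was 1 higher and 1 lower, beside 16.8% and 14.5%, or 1 and 2 without replicate C, beside 21.4% and 17.0%. In treated HCC1937, 1 was higher and 6 were lower, beside 30.5% and 28.8%. WDR26, a substrate-receptor and scaffold subunit, rose under AKTi (0.43 ± 0.05, adjusted p = 7.06e-07) and fell in treated HCC1937 (-0.16 ± 0.06, adjusted p = 0.0309). ARMC8, a scaffold subunit, fell under AKTi (-0.27 ± 0.06, adjusted p = 0.000342) and in treated HCC1937 (-0.44 ± 0.07, adjusted p = 0.000117). GID4 and GID8 rose under AKTi by 0.32 ± 0.08 and 0.16 ± 0.05. In treated HCC1937, GID8 fell (-0.16 ± 0.05, adjusted p = 0.0155) and GID4 was not called (0.05 ± 0.07, adjusted p = 0.588). Neither was called in treated HCC38, with GID4 at -0.02 ± 0.11 and GID8 at -0.16 ± 0.08. Of the other genes with the Yippee-type fold, OIP5 and MIS18A, which encode Mis18 proteins that license centromeres, fell under AKTi, OIP5 from 16.1 to 8.07 CPM and MIS18A by 0.84 on the log2 scale (adjusted p = 7.31e-10 and 1.73e-08). CRBN, which encodes cereblon, rose by 0.77 ± 0.09 (adjusted p = 2.4e-07). The same 3 calls and directions were found in treated HCC1937, with OIP5 at -0.46 ± 0.08, MIS18A at -0.84 ± 0.08 and CRBN at 0.30 ± 0.08. In HCC38 only MIS18A of the 3 was called (-0.43 ± 0.09, adjusted p = 0.0053). Without replicate C, OIP5 was called there too (-0.37 ± 0.11, adjusted p = 0.0129).

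Genes known to be induced by FOXO factors were listed because AKT restrains those factors. Several FOXO-induced genes had been picked from earlier results of these libraries, so the counts are not independent evidence of direction. Of 15 tested, 14 were called higher and 0 lower under AKTi in HCC1395, beside 27.1% and 22.6% of all genes, with a median log2 change of 0.95 against 0.06 for all genes. In treated HCC1937 it was 14 higher and 2 lower of 16, beside 30.5% and 28.8% (median 1.28 against 0.03). In treated HCC38 it was 9 higher and 0 lower of 15, beside 16.8% and 14.5% (median 0.44 against -0.01). Without replicate C in HCC38 it was 11 and 0, beside 21.4% and 17.0% (median 0.49 against 0.01). Under EZH2i alone 7 were higher and 4 lower, beside 18.8% and 14.9% (median 0.16 against 0.02). PIK3IP1, a brake on PI3K, rose by 2.65 ± 0.07 under AKTi, and KLHL24, a ubiquitin ligase adaptor, by 2.23 ± 0.06. FBXO32, an F-box protein of muscle atrophy, rose by 1.89 ± 0.05 under AKTi and fell by 0.50 under EZH2i alone, and TXNIP, a thioredoxin-binding protein, rose by 1.67 ± 0.05 under AKTi. In treated HCC38, PIK3IP1 rose by 2.54 ± 0.23, KLHL24 by 1.91 ± 0.12 and FBXO32 by 0.32 ± 0.09 (adjusted p = 0.0177). TXNIP was at 0.27 ± 0.11 there and did not pass (adjusted p = 0.0742), and passed without replicate C (0.28 ± 0.10, adjusted p = 0.0375).

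Likeness of pattern was measured as Pearson's r of log2 CPM over the 24 libraries after the DMSO mean of each line was subtracted, among 12097 protein-coding genes (12098 for YPEL4) with a mean of at least 2 CPM. The points share libraries, treatment groups and scaling, so r is a description and has no p. The genes most like YPEL3 were CTSF (0.99), CYTH3 (0.99), ITGB5 (0.99), RNPEPL1 (0.98) and GRN (0.98). For YPEL2 they were KLHL24 (0.99), CCNG2 (0.98) and ABCA5 (0.98), and for YPEL1 PNRC1, PAQR8 and KLHL24 (0.98 each). For YPEL5 they were WIPI1 (0.98), MT2A (0.97) and PXDC1 (0.97), and for YPEL4 ETV4 (0.96), ZG16B (0.94) and RRNAD1 (0.94). Within the family, over the 24 libraries, the closest pair was YPEL1 and YPEL2 (0.97), and the least alike were YPEL4 and YPEL5 (0.72). In the 12 HCC1395 libraries alone the closest pair was YPEL3 and YPEL5, at 0.99 against 0.83 over all 24. There YPEL1 and YPEL2 were at 0.97, and YPEL4 and YPEL5, still the least alike, at 0.89.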

How the data were processed

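Poly(A) RNA-seq was deposited for 24 libraries as raw counts per gene in 1 file per library (58735 rows), made by the authors with fastp and HISAT2 (2.0.5) on hg38, per the submitters' processing notes. For the counting step, neither the tool nor its use of strand is recorded in the labels or notes. Tables of normalised values that the authors made with DESeq2 were not used. Groups came from the labels, and no libraries held identical values.

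Counts were tested with edgeR (4.0.16) in R (4.3.3): filterByExpr with a minimum count of 10, TMM scaling and robust quasi-likelihood F tests, two-sided, with Benjamini-Hochberg adjustment over all genes tested at 0.05. Each line was fitted alone (12, 6 and 6 libraries), and all 24 libraries jointly for differences between lines. A gene was called where its adjusted p was below the threshold. SE values come from the same fit. Precision was limited by depth, from 9 counts per library upwards for the members, and by the spread between replicates. The code was tested on simulated counts. Exonic lengths and overlaps came from GENCODE, and promoters from RefSeq.

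The 5 members, the gene lists (10 CTLH genes, 3 genes of the same fold and 16 FOXO-induced genes) and the rule for named genes were chosen with earlier results of these data known. Named list genes are up to 4 per list with the smallest p under EZH2i+AKTi in HCC1395. For the same reason, AKTi and EZH2i+AKTi against DMSO, and EZH2i+AKTi against EZH2i, in HCC1395 are given with no p for any member. The interaction and the differences from the response of HCC1395 likewise have none. YPEL3 also has none for EZH2i+AKTi against AKTi, in the other lines against DMSO, or for the response of HCC38 against HCC1937. A further list of 20 genes was counted and is not reported here. Alternatives were RLE scaling, dropping the minimum count, asking for 1 CPM in at least 3 libraries, DESeq2 (1.42.0), the replicate letter as a block, leaving out each library, and fits of only the groups compared. Lists, shares and means in HCC38 without replicate C were added after seeing the data.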

Additional observations from a re-analysis of the deposited data

Results flagged for a closer look

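Response differences between groups passed the test for 8 combinations of member and contrast, each by an interaction term of edgeR's quasi-likelihood fit with Benjamini-Hochberg adjustment. The first 3 and the last 2 values below contain the HCC1395 change that was known when the family was chosen, so they are a description. The YPEL3 value between HCC38 and HCC1937 is also a description. In HCC1395 the change under both agents was below the sum of the single changes for YPEL2 (-0.59). The response to both agents was smaller in HCC38 than in HCC1395 for YPEL3 (-1.68) and YPEL4 (-1.40). It was smaller in HCC38 than in HCC1937 for YPEL1 (-0.54), YPEL3 (-1.33) and YPEL4 (-1.38). It was larger in HCC1937 than in HCC1395 for YPEL2 (0.49) and YPEL5 (0.39). The values for YPEL3 and YPEL5 kept their side of the threshold in every leave-one-out fit, and the other 5 did not.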

How the results depend on the processing

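Over 914 member values under the alternatives, 873 kept their side of the threshold, 33 lost the call, 8 gained it and 0 of the called values reversed. Some values called in neither fit changed sign, such as YPEL4 under EZH2i in HCC1395, from 0.29 to -0.01 without DMSO replicate A. All 229 member values for AKTi or EZH2i+AKTi against DMSO were above 0. The shares of all genes called higher and lower depended on the scaling in some comparisons. For EZH2i alone 3402 were higher and 2685 lower, against 3095 and 3511 under RLE scaling. For AKTi alone these were 4892 and 4087, against 4366 and 4558, and for treated HCC1937 5399 and 5092, against 5234 and 5297. Under both agents in HCC1395 and in HCC38, more genes were higher than lower with either scaling. The genes called in the interaction numbered 286, with 477 by DESeq2 and 127 to 1022 when a library was left out, and with no count filter 219 genes were higher and 203 lower. The members called in the interaction numbered 0 to 1 over the libraries left out. For EZH2i against DMSO they numbered 1 to 2. For the difference in response they numbered 1 to 3 (HCC38 minus HCC1395), 1 to 2 (HCC1937 minus HCC1395) and 1 to 3 (HCC38 minus HCC1937). In HCC38 the genes called under both agents numbered 5362, with 3114 to 6715 when a library was left out. The cause was not tested, and each left-out library also leaves fewer samples in the fit. With no count filter, the YPEL1 difference between HCC38 and HCC1937 (-0.51, adjusted p = 0.183) lost its call. The differences from HCC1395 crossed the threshold for YPEL2, YPEL3, YPEL4 and YPEL5 under some alternatives, and are a description in any case. YPEL4 in HCC38 could not be tested with the stricter filter.

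Same-lettered libraries shared no large deviation: their deviations correlated at -0.06 to 0.07 in HCC1395, -0.08 to 0.11 in HCC38 and -0.21 to -0.08 in HCC1937. With 3 such pairs each in HCC38 and HCC1937, these values cannot show whether same-lettered libraries were set up together. With the letter as a replicate block, the interaction called 247 genes and 1 member, HCC38 5793 genes and 4 members, and HCC1937 9312 genes and 5 members, and no member's call changed. Low counts limit YPEL4 throughout and YPEL2 in HCC38. CPM values describe shares of each library, and absolute RNA amounts were not measured.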
